A study of Rattus norvegicus with 12 samples.

Results

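In the corpus luteum (CL) of pregnant rats, 69 of 14506 measured genes differed when estradiol (E2) was injected together with the aromatase inhibitor anastrozole (AI), while AI alone left them near the vehicle (VEH) level. Of these genes, 52 were higher and 17 were lower in AI+E2 treated rats than in both other day 16 groups. They were chosen from group means of log2 values. AI+E2 had to differ from AI and from VEH by at least 1.5-fold in the same direction, and AI had to lie within 0.3 of VEH on the log2 scale, which is 1.23-fold. The choice left out 16 genes by name, of which only Nr0b2 met the limits. The contrasts between the day 16 groups therefore chose the genes and are given below as values. Where calls of these contrasts are counted for the 69 genes, they describe the choice and support nothing.

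Wistar rats were untreated on day 12 of pregnancy (D12) or were treated from day 12 for 4 days and studied on day 16. VEH rats received the vehicle, AI rats anastrozole at 1 mg per kg body weight per day by mouth, and AI+E2 rats the same AI with subcutaneous E2, which the labels give as 10 µg per day. Each group had 3 rats, and luteal RNA of each was hybridised to an Affymetrix Rat Gene array. All rats were pregnant, and none received E2 without AI, so E2 alone and E2 on a background of AI cannot be told apart. In whole CL, fewer cells of a type and less RNA per cell cannot be told apart either.

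The CL makes progesterone, and in the rat it also converts androgen to E2 by aromatase during this stage of pregnancy. E2 acts through nuclear receptors that bind estrogen response elements or join other transcription factors on DNA, and it acts together with prolactin to keep luteal cells large and steroidogenic. Pituitary, uterus, liver and cells of the immune system also carry estrogen receptors.

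The 7 measured luteal cell markers, among them Star and Cyp11a1, averaged between 11.59 and 12.09 on the 12 arrays. One array stood apart. On D12 replicate 2, 37 genes lay more than 1 above the mean of the other D12 arrays, and 22 of them belonged to a list of 47 interferon-stimulated genes. On the other 11 arrays between 0 and 4 genes did so in the same way, none of them from that list. The fit behind every call includes the spread of D12. Comparisons with D12 and the AI+E2 calls of interferon, immune and blood cell genes are therefore given with and without this array.

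The higher genes lay 0.59 to 1.56 above VEH and 0.59 to 1.58 above AI, with medians of 0.74 and 0.75. The lower genes had differences of -0.59 to -1.45 from VEH and of -0.61 to -1.56 from AI, with medians of -0.84 and -0.77. For 48 of the 52 higher genes all 3 AI+E2 arrays lay above all 6 VEH and AI arrays, as they did for 6.31% of all genes, and for 15 of the 17 lower genes all 3 lay below them, as for 4.56% of all genes. The overlapping genes were Oas1a, RT1-Ba, RT1-Bb, Sostdc1, Rpl36a and Rpl41. An adjusted p under 0.05 in both comparisons of AI+E2 held for 47 of the higher and 15 of the lower genes, against 3.92% of all genes, and without D12 replicate 2 for 50 and 16, against 4.65%. In single comparisons 8.65% of all genes were higher and 4.13% lower with AI+E2 than with AI (12.8% in all), and 6.11% were higher and 6.9% lower than with VEH (13% in all). Arrays lay apart in either direction for 63 of the 69 genes and for 10.9% of all genes. Between AI and VEH, where 5.91% of all genes were higher and 11% lower with AI (16.9% in all), Rhobtb1, Tns1 and Tns4 were called, all higher with AI. The limits themselves make the counts for AI+E2 high and the count between AI and VEH low, and nothing is read from them.

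**Figure D1:**
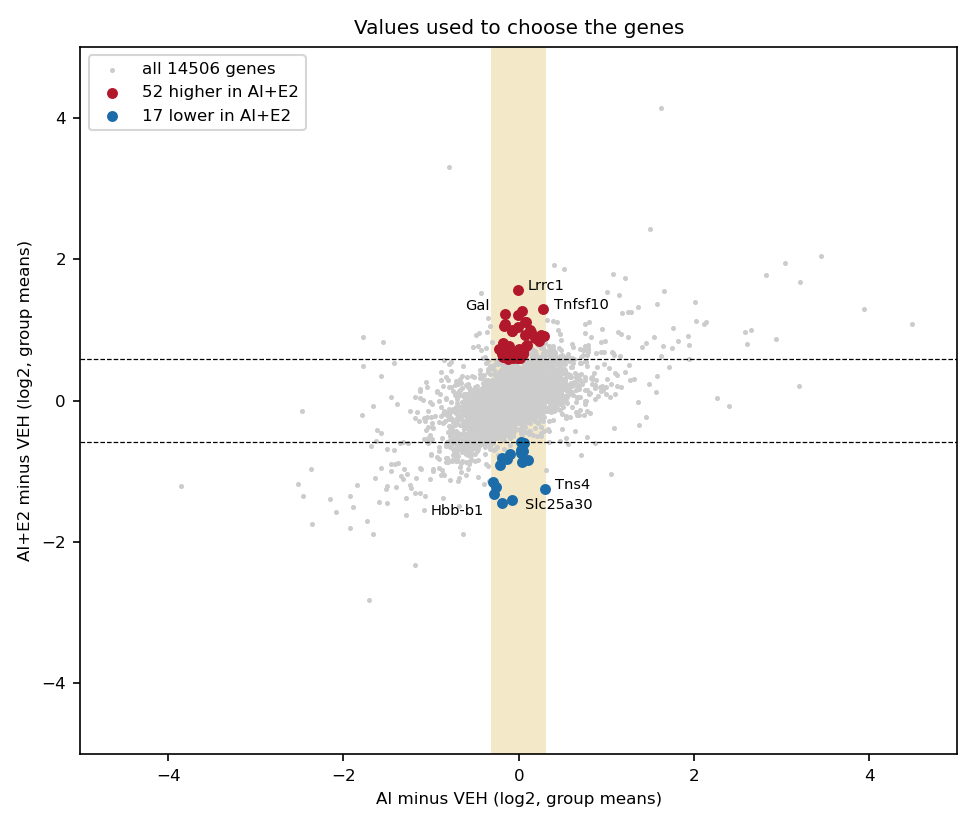
Each point is a gene, with AI minus VEH on the horizontal and AI+E2 minus VEH on the vertical axis, both as log2 differences of group means; the shaded band is the range of 0.3 on either side of 0 and the dashed lines are at 1.5-fold. The 52 higher genes (red) and 17 lower genes (blue) lie inside the band and beyond the lines, up to 1.56 for Lrrc1 and down to -1.45 for Hbb-b1.

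The limits cut through a continuous range. Just inside 1.5-fold among the higher genes were RT1-Bb, Tent5a and Fcgr3a, whose smaller difference was 0.59, 0.59 and 0.60. Just outside were Snrpb2, RT1-Da and Fez2, at 0.58, 0.58 and 0.57. Among the lower genes Sec14l1, Mlxipl and Tmem86a lay just inside, with smaller differences of -0.59, -0.60 and -0.62, and Dusp14, Mphosph8 and Calml3 just outside, at -0.57, -0.55 and -0.53. The limit on AI minus VEH left in Tnfsf10 and Ddit4 (both 0.28) and Tns4 (0.30), and left out Ada (-0.31), Mfge8 (0.32) and Miox (0.31), so a small difference with AI is part of some genes named here.

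Lrrc1, a scaffold protein of the basolateral cell border, differed most among the higher genes. It read 6.79, 7.08 and 6.91 on the VEH arrays, 6.98, 6.91 and 6.85 on the AI arrays and 8.62, 8.13 and 8.72 on the AI+E2 arrays (log2). The lowest AI+E2 array lay well above the highest of the other day 16 arrays, and the AI+E2 mean was 1.56 above VEH, or 2.95-fold. Other proteins of the cytoskeleton, adhesion and cell polarity followed at smaller size. Tns1 (tensin, which links integrins to actin) was 0.93 above VEH and 0.68 above AI, Tbccd1 (Golgi and centrosome position) 0.79 and 0.70, Rhobtb1 0.84 and 0.61, Homer2 (a synaptic type scaffold) 0.61 and 0.79, Cdc14a (a phosphatase) 0.82 and 1.00, and Inppl1 (the lipid phosphatase SHIP2) 0.68 and 0.65. Tbcb, which helps fold tubulin, spread most among them, with 8.28, 8.84 and 7.71 in VEH, 7.97, 7.70 and 8.47 in AI and 9.0, 8.94 and 9.09 in AI+E2. Its VEH replicate 2 came just below the lowest AI+E2 array.

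A group of 9 higher genes, formed by hand, code for signalling and transcription proteins that hormones and stress are known to induce. Gal encodes galanin, a neuropeptide that E2 induces in the pituitary. Its values were 6.30, 6.82 and 6.28 in VEH, 6.25, 6.14 and 6.54 in AI and 7.75, 7.74 and 7.57 in AI+E2, so that it was low in both groups without injected E2 and 2.33-fold above VEH with it. Rcan1, an inhibitor of the calcium-dependent phosphatase calcineurin, read 7.08, 7.21 and 7.01 in VEH, 6.88, 6.98 and 6.98 in AI and 8.32, 8.01 and 8.20 in AI+E2. Cited2, a transcription cofactor that limits hypoxia-inducible factor, read 9.08, 8.89 and 8.84 in VEH, 8.63, 8.86 and 8.82 in AI and 10.03, 9.98 and 9.94 in AI+E2. For both genes the AI+E2 arrays sat well clear of the others, by a wider gap than the spread within any group. Rasd1, a small G protein first known from dexamethasone-treated cells, was at 8.71, 8.61 and 8.84 in VEH, 8.56, 8.73 and 8.84 in AI and 9.74, 9.73 and 9.79 in AI+E2. Its AI+E2 arrays lay closest together of its 4 groups.

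Rgs2, which shortens signals of Gq-coupled receptors, had 6.88, 6.88 and 7.40 in VEH, 6.96, 7.03 and 6.93 in AI and 8.07, 7.89 and 8.17 in AI+E2. VEH replicate 3 was the highest of its arrays without E2 and still below the AI+E2 arrays. Nupr1, a stress-induced chromatin protein, had means of 7.90 ± 0.03, 7.83 ± 0.17 and 8.88 ± 0.09 in VEH, AI and AI+E2 (SD, n = 3 each). The clock repressor Per2 was 0.88 above VEH, the mTOR inhibitor Ddit4 0.91, and Pdk4, which restrains pyruvate dehydrogenase, 0.64. Per2 and Ddit4 also had AI means of 0.18 and 0.28 above VEH.

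Several of these genes are known glucocorticoid targets, and a list of 20 measured genes of that kind, written after the values were seen, was set beside them. It held Per2, Ddit4, Rasd1, Rgs2, Pdk4 and Cited2. Of the other 14 genes, 1 rose with AI+E2 against AI (Angptl4, and without D12 replicate 2 also Mt1) and 5 rose against VEH, none fell in either comparison, and the medians were 0.09 and 0.14. Over all genes 8.65% rose in the first comparison and 6.11% in the second, with medians of -0.02 and -0.01. Over all 20 genes, 7 rose against AI and 11 against VEH and none fell, with medians of 0.12 and 0.44. These counts include the 6 genes chosen for such differences. Examples that differed little from AI were picked for that reason and do not stand for the list. Among them Fkbp5 averaged 9.24 in AI and 9.09 in AI+E2, Tsc22d3 6.59 and 6.66, and Per1 8.15 and 8.27. Angptl4, by contrast, was 1.13 above AI. Without D12 replicate 2, Fkbp5, Mt1, Mt2A, Sult1a1 and Angptl4 rose with AI+E2 against VEH. Fkbp5, Klf9, Mt1, Mt2A and Sult1a1 were already higher with AI than with VEH in limma, and Angptl4 was lower (adjusted p = 0.00501).

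Of 28 measured textbook estrogen-induced genes, Gal alone belonged to the set, which is 3.57% of the list, and the set is 0.476% of all genes. With AI+E2 against AI, Gal and Cxcl12 rose and C3, Xbp1, Wnt4 and Vegfa fell, and the median of the 28 was -0.06. Against VEH 4 rose and 5 fell, with a median of 0.01. Pgr, the progesterone receptor and a classical estrogen target in uterus, averaged 5.04 in VEH, 4.96 in AI and 4.94 in AI+E2. These values are dim beside the median of 6.87 over all genes. Other genes of the list, such as Pdzk1 at 5.59 and Prl at 5.31 in AI+E2, were dim as well. Whether such genes were detected was not tested, so their flat values say nothing of a response. Of 10 pathway lists 8 held no gene of the set, a count read as nothing at that share, and genes left out by name stand on some of them. Among 25 PPAR target and fatty acid oxidation genes Pdk4 belonged to the set. The other circadian clock genes moved in both directions, with 3 of 14 higher and 4 lower with AI+E2 against AI, among them Nr1d1 at -1.47 (adjusted p = 1.28e-07, limma).

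**Figure D2:**
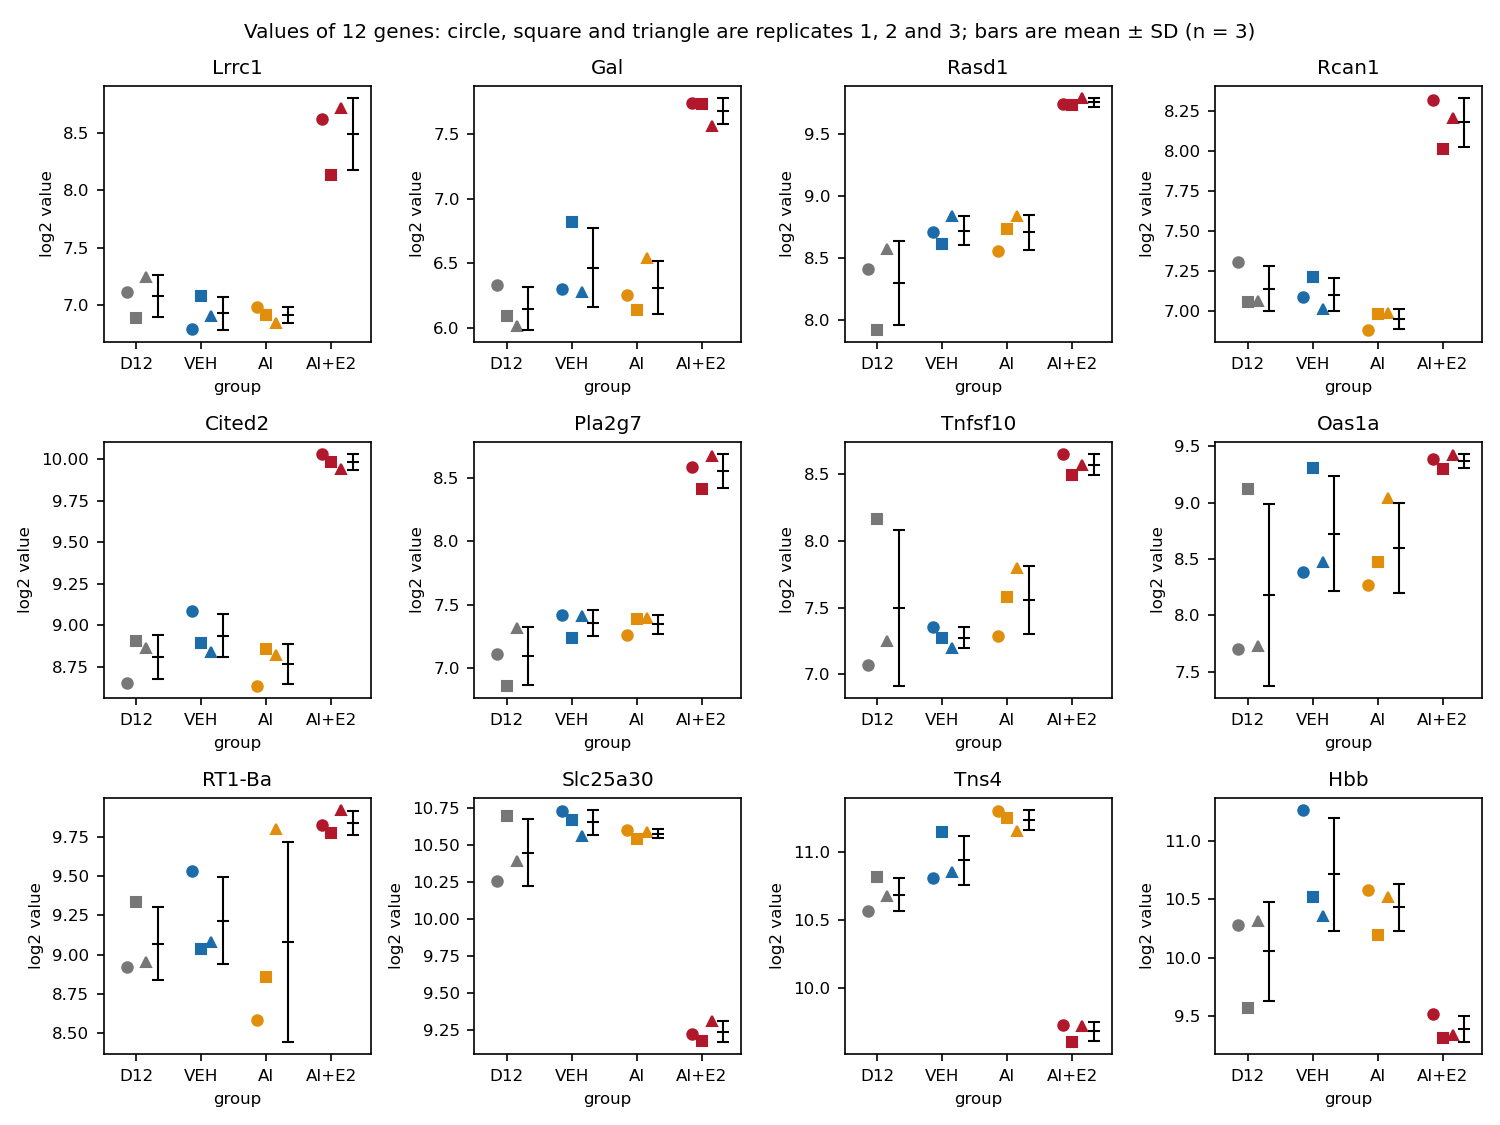
Log2 values of 12 genes on each of the 12 arrays, by group on the horizontal axis; circles, squares and triangles are replicates 1, 2 and 3, and the black marks give the mean ± SD (n = 3). Most genes show 3 AI+E2 arrays apart from the other groups, as Gal at 7.57 to 7.75 does, while Oas1a and RT1-Ba have single VEH or AI arrays close to them.

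Genes grouped by hand under interferon and immune responses made up 12 of the 52 higher genes. The share of such genes over all genes was not counted. Of the 12, 7 were on the list of 47 measured interferon-stimulated genes. Interferons signal through STAT proteins, which together with IRF9 bind interferon response elements, repeats of GAAA on either strand. Tnfsf10 (the death ligand TRAIL) read 7.36, 7.27 and 7.20 in VEH, 7.29, 7.58 and 7.80 in AI and 8.65, 8.49 and 8.57 in AI+E2. The T cell attractant Cxcl9 read 9.20, 8.92 and 8.98 in VEH, 8.96, 9.03 and 9.5 in AI and 10.06, 9.96 and 10.09 in AI+E2, and its neighbour Cxcl10 8.28, 7.87 and 8.02 in VEH, 7.79, 7.91 and 8.16 in AI and 8.80, 8.74 and 8.96 in AI+E2. AI replicate 3 was the highest AI array for all 3 genes. Apol9a, an apolipoprotein L gene, was at 8.11, 8.04 and 8.29 in AI+E2 with 7.02 to 7.23 in VEH and AI.

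Oas1a, which makes the signal that activates RNase L, overlapped between the groups. Its values were 8.39, 9.31 and 8.47 in VEH, 8.27, 8.47 and 9.04 in AI and 9.39, 9.30 and 9.42 in AI+E2, so VEH replicate 2 lay within the AI+E2 arrays. Rtp4, a receptor transporter, and Lgals3bp, a galectin ligand, averaged 0.65 and 0.68 above VEH, with 3 AI+E2 arrays above the other day 16 arrays. These 3 genes, RT1-Ba and RT1-Bb were not called in both comparisons of AI+E2 with all arrays, and without D12 replicate 2 only RT1-Ba, RT1-Bb and Rpl41 of the 69 were not. The D12 arrays, whose spread enters the same fit, ranged over 1.42 for Oas1a, 1.79 for Rtp4 and 1.64 for Lgals3bp.

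The limits chose the 7 listed genes of the set for large differences, so a smaller size of the others is largely fixed by that choice. The 40 other interferon-stimulated genes, from a list also written after the values were seen, lay closer to the other groups. Of these, 4 rose with AI+E2 against AI (Oas1b, Irf8, Gbp5 and Bst2), 3 rose against VEH (B2m, Bst2 and Socs1) and none fell in either, with medians of 0.25 and 0.26. D12 replicate 2 decided these counts. Without it 19 of the 40 rose against AI and 21 against VEH and none fell, while over all genes 9.77% rose against AI and 6.89% against VEH. Mx1, Usp18, Oas1b, Oasl2, Ifi44, Ifih1, Dhx58, Gbp2, Gbp5 and Bst2 were among those that rose in both. The mean over the 40 genes was 7.94 to 8.06 on the AI+E2 arrays, 7.67 to 7.74 in VEH and 7.60 to 7.72 in AI. On D12 the mean was 7.32 and 7.35 in replicates 1 and 3 and 8.42 in replicate 2. Mx1, a strongly interferon-dependent antiviral gene, averaged 7.08 in VEH, 7.14 in AI and 7.57 in AI+E2, and Isg15 7.43, 7.30 and 7.46. On D12 replicate 2 Mx1 and Isg15 read 9.36 and 8.64. Usp18 read 8.32, 8.0 and 8.5 in AI+E2 and 6.63 to 7.64 in VEH and AI, with an adjusted p of 0.127 against AI and 0.27 against VEH in limma, and of 3.15e-05 and 0.000386 without D12 replicate 2. For Mx1 the adjusted p without that array was 0.00357 and 0.00139, and for Isg15 0.375 and 0.929.

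**Figure D3:**
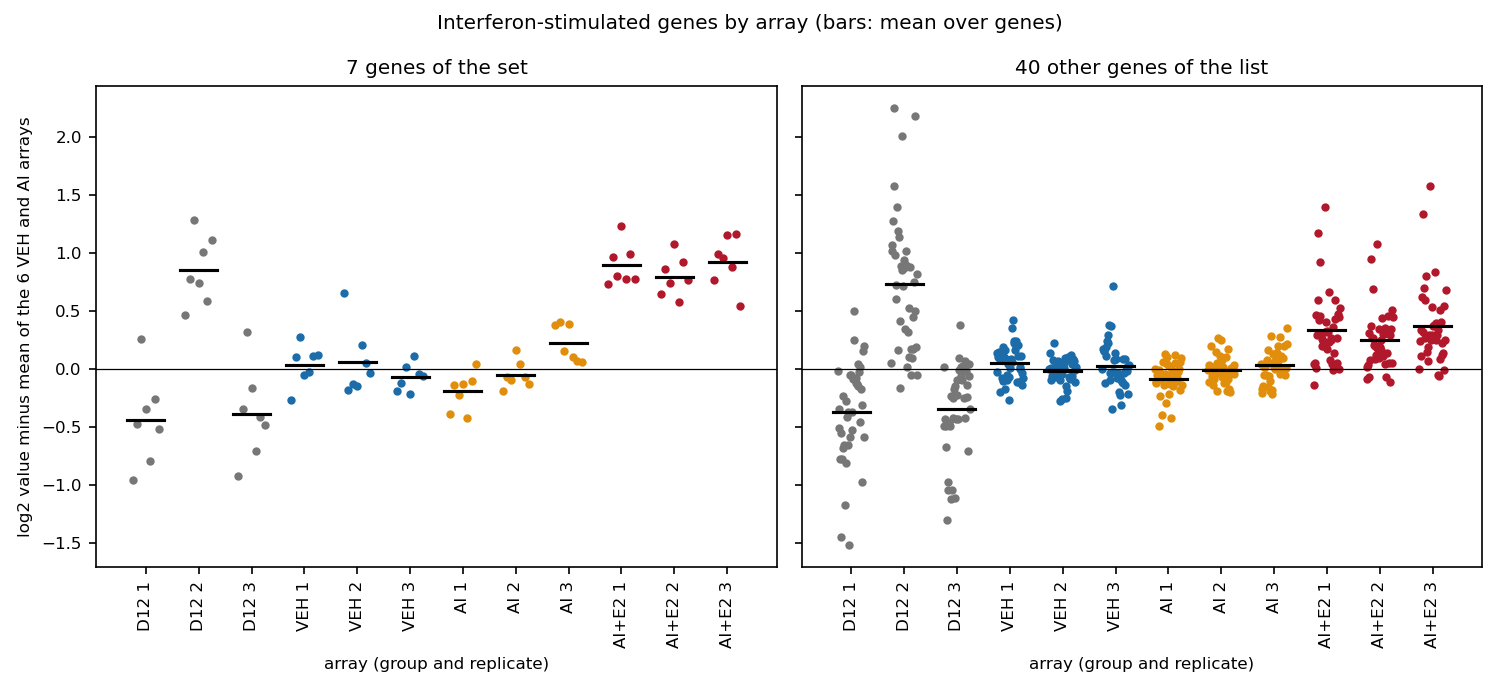
Interferon-stimulated genes on each array (horizontal axis), as log2 value minus the gene's mean over the 6 VEH and AI arrays (vertical axis); each point is a gene and the bar is the mean over genes. The 7 genes of the set average 0.80 to 0.92 on the AI+E2 arrays and 0.85 on D12 replicate 2, and the other 40 average 0.25 to 0.37 and 0.73. The 7 were chosen for large AI+E2 values, so this gap on the AI+E2 arrays is largely fixed by the choice.

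Promoters were searched because interferon targets share this element. RefSeq (GRCr8) gave a window from 250 bases before to 50 bases after the start for 54 of the 69 genes, 42 higher and 12 lower. A pair of GAAA separated by any 2 bases, on either strand and chosen after the values were seen, occurred in 7 of the 42 windows of higher genes (Apol9a, Ccser1, Cxcl10, Fcgr3a, Lgals3bp, Lgals5 and Oas1a), in 0 of the 12 of lower genes and in 3.77% of all 27457 windows. Stretches of the 4 that are also on the interferon list are shown with the match in capitals, written 5′ to 3′ in the direction of the gene; in Apol9a and Oas1a a pair of matches overlap.
Oas1a (chr12:41330400-41330465, plus strand): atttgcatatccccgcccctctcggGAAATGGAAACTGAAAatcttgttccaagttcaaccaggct
Apol9a (chr7:111028245-111028310, minus strand): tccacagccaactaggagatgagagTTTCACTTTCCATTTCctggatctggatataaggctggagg
Lgals3bp (chr10:104127864-104127923, minus strand): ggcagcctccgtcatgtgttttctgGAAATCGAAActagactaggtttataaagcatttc
Cxcl10 (chr14:15988816-15988857, plus strand): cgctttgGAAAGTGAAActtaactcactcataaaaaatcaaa
The last match ended 26 bases before the start in Oas1a, 57 in Apol9a, 41 in Lgals3bp and 234 in Cxcl10. These are matches of letters only, and whether a factor binds there was not measured.

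The other motifs were listed with the pathways. A full estrogen response element, GGTCA and TGACC with 3 bases between them, was found in 0 of the 54 windows and in 0.0255% of all windows, and with at most 1 mismatch it was found in Tbccd1 alone and in 0.885% of all. The CCAAT box that NF-Y binds occurred in 22 of 42 windows of higher genes (52.4%) and in 8 of 12 of lower genes (66.7%), against 37.7% of all windows. The AP-1 site TGANTCA was present in Apol9a, Cxcl10, Pla2g7, Rcan1 and Hbb (7.33% of all windows), the cyclic AMP response element TGACGTCA in Rcan1 and RT1-Ba (1.91%), the STAT site TTCNNNGAA in Cxcl9 and Oas1a (8.68%) and the NR4A site AAAGGTCA in Akr1b7 (1.29%). The E box CANNTG was in 24 of the higher (57.1%) and 7 of the lower windows (58.3%), against 71.6% of all. The windows are short, and absent letters say nothing of elements farther away.

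RT1-Ba and RT1-Bb, neighbouring genes for the chains of an MHC class II molecule that presents peptides to T helper cells, varied within groups through single arrays. RT1-Ba read 9.53, 9.04 and 9.08 in VEH, 8.58, 8.86 and 9.80 in AI and 9.83, 9.77 and 9.92 in AI+E2, and RT1-Bb read 9.67, 9.14 and 9.10 in VEH, 8.98, 9.03 and 9.93 in AI and 9.90, 9.96 and 9.85 in AI+E2. For both genes AI replicate 3 stood inside the AI+E2 range while the other AI arrays were far below it. Of the 8 other MHC class II genes measured, RT1-Da, RT1-Db1 and RT1-DMb rose with AI+E2 against AI, the last pair also against VEH, and none fell. Without D12 replicate 2 the 3 rose against AI again, and Cd74 joined the last pair against VEH. Cd74, the invariant chain, averaged 11.05 in VEH, 11.14 in AI and 11.60 in AI+E2.

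Fcgr3a, a receptor for IgG on natural killer cells and macrophages, averaged 6.41 ± 0.33 in VEH, 6.39 ± 0.24 in AI and 7.01 ± 0.02 in AI+E2. The rat galectin Lgals5 was 0.60 above VEH, and the cytidine deaminase Apobec1 0.66. Of 15 measured macrophage markers 5 rose with AI+E2 against VEH (Cd68, Adgre1, C1qa, C1qc and Aif1), 1 rose (C1qa) and 1 fell (Lyz2) against AI. With AI alone 4 had already risen against VEH (Cd68, Cd163, Adgre1 and C1qa), where the immune genes of the set were flat by choice. These calls of AI against VEH were made with all arrays only. Without D12 replicate 2, 8 rose with AI+E2 against VEH, and 2 rose and 2 fell against AI. The mean of the 15 markers ran from 8.15 to 8.23 in VEH, 8.30 to 8.45 in AI and 8.41 to 8.46 in AI+E2. For the 14 lymphocyte and natural killer cell genes the ranges were 6.55 to 6.64, 6.40 to 6.58 and 6.59 to 6.64, with 4 higher with AI+E2 against AI (Cd3g, Cd4, Ptprc and Nkg7) and 1 higher (Cd4) and 1 lower (Prf1) against VEH. Without D12 replicate 2, 5 were higher against AI, and 2 were higher and 1 lower against VEH. The part of these cells in the immune genes was not tested.

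Secreted, surface and transport proteins formed a further group of 9. Pla2g7, the enzyme that breaks down platelet-activating factor, read 7.42, 7.24 and 7.41 in VEH, 7.26, 7.38 and 7.39 in AI and 8.59, 8.41 and 8.68 in AI+E2. The secreted pentraxin Nptx2 read 8.49, 8.64 and 8.42 in VEH, 8.51, 8.47 and 8.77 in AI and 9.65, 9.67 and 9.54 in AI+E2, and the amino acid exchanger Slc7a6 8.10, 8.03 and 8.23 in VEH, 8.16, 8.31 and 8.14 in AI and 9.26, 9.18 and 9.24 in AI+E2. VEH and AI arrays were interleaved for all 3 genes, and the AI+E2 arrays lay above them. Folr1, the folate receptor, was 0.96 above VEH, yet its AI replicate 3 read 10.57 against 10.81 to 10.86 in AI+E2. The ligand Efnb1, the potassium channel Kcnk3, the membrane protein Tmem184c and the granule protein Chgb were 0.63 to 0.75 above VEH. Chgb was the dimmest gene of the set, with a mean of 5.51 over all arrays. Sostdc1, an antagonist of BMP and WNT ligands, overlapped through VEH replicate 1, with 7.23, 6.57 and 6.36 in VEH, 6.62, 6.45 and 6.91 in AI and 7.17, 7.35 and 7.45 in AI+E2.

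Spata18, which takes part in the clearing of damaged mitochondria, had closely spaced values. It read 6.19, 6.24 and 6.42 in VEH, 6.44, 6.20 and 6.33 in AI and 7.55, 7.54 and 7.55 in AI+E2. The AI+E2 arrays differed from each other by far less than from any other array, and the mean was 2.4-fold above VEH. The predicted gene 1810009J06Rikl behaved alike at 7.29, 7.31 and 7.29 in AI+E2, with 6.23 to 6.53 in VEH and AI. Ubxn2b, Fam135a and Ccser1 were 0.67 to 0.77 above VEH.

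Enzymes of several pathways were higher by 0.66 to 0.88 than in VEH. They were guanine deaminase (Gda), the UDP-xylose enzyme Uxs1, the aldo-keto reductase Akr1b7 known from steroid-making cells, the hydroxylysine kinase Hykk and the phosphatase-like Hdhd2. Nuclear and RNA genes were Satb1, an organizer of chromatin loops, Zbtb33, the methyl-DNA binding protein Kaiso, Terc, the RNA of telomerase, and the poly(A) polymerase Tent5a. They were 0.59 to 0.66 above VEH and 0.67 to 0.72 above AI.

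**Figure D4:**
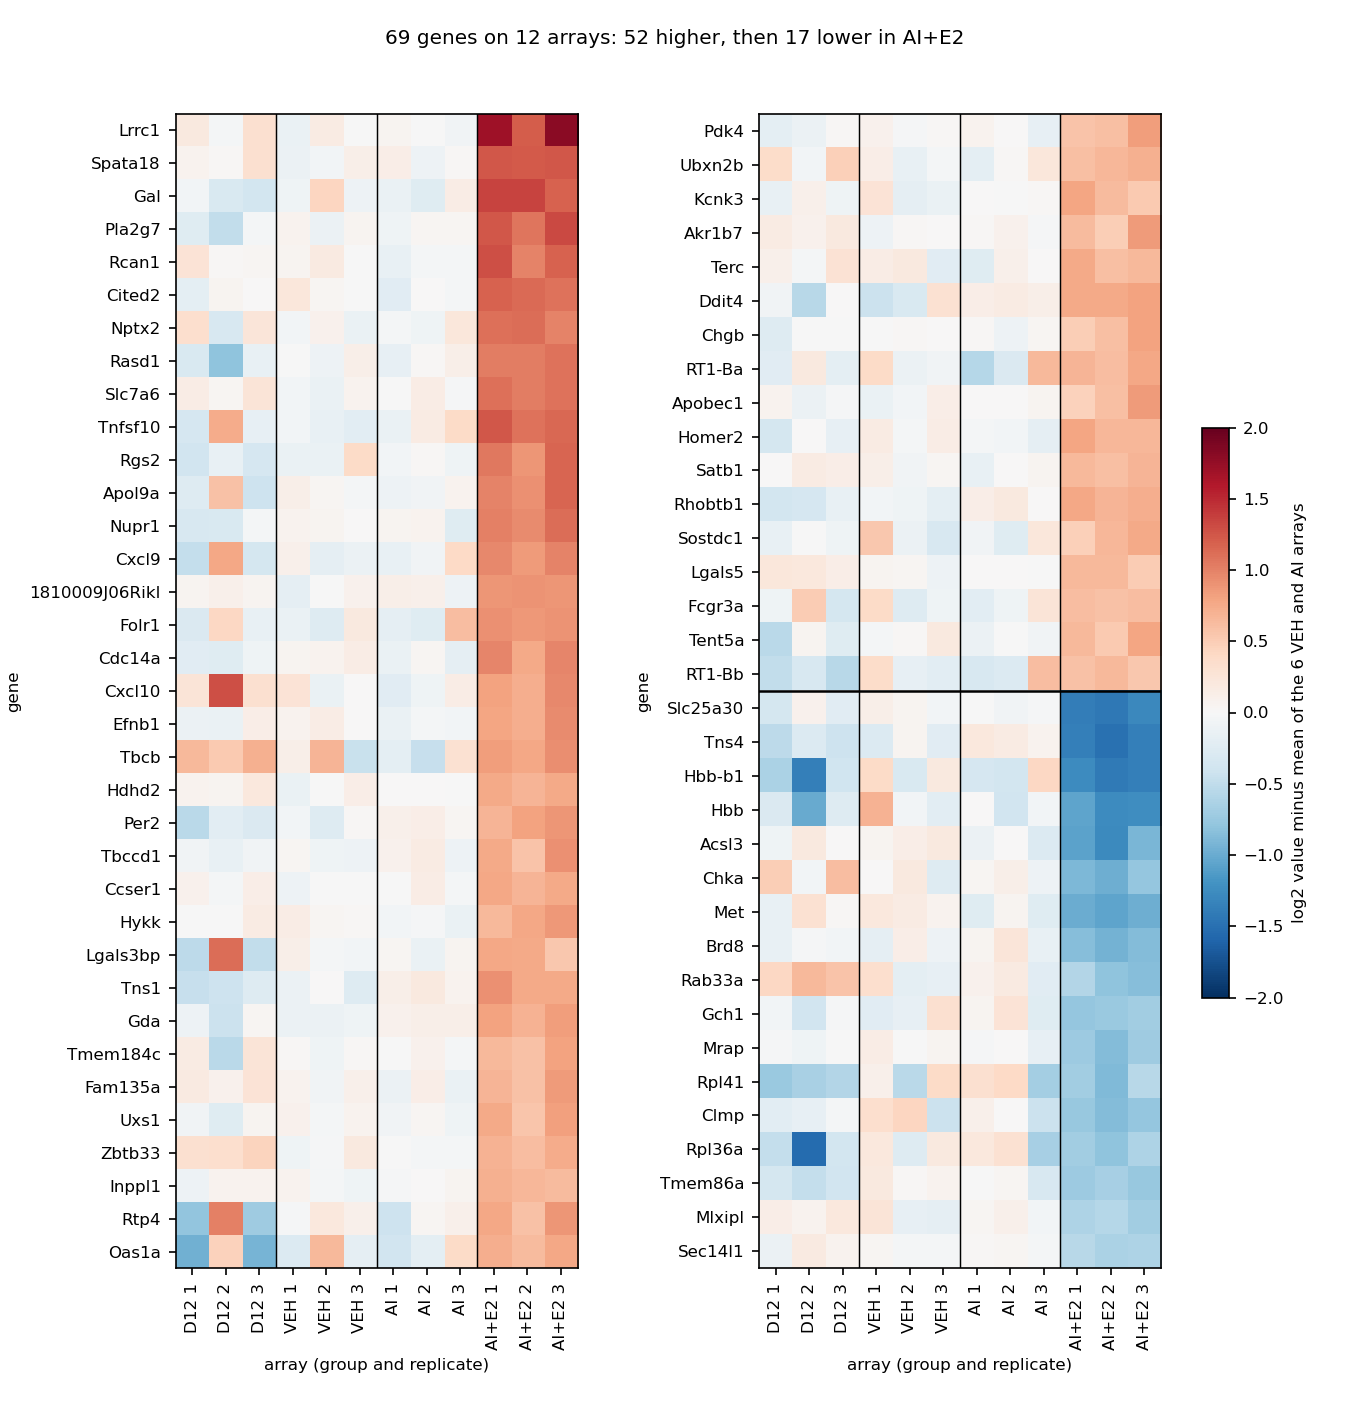
Log2 value of each of the 69 genes (rows) on each array (columns) minus the gene's mean over the 6 VEH and AI arrays, red for higher and blue for lower; the 52 higher genes come first and a line precedes the 17 lower ones. The AI+E2 columns are alike. D12 replicate 2 lies more than 1 above the mean of the other D12 arrays for Cxcl9, Lgals3bp, Oas1a, Rtp4 and Tnfsf10. Among the higher genes it reaches the AI+E2 arrays for Cxcl10, Lgals3bp and Rtp4.

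Among the lower genes, Tns4 and Slc25a30 stood far below the other groups. Tns4, a tensin without the actin-binding part that forms complexes with growth factor receptors, read 10.81, 11.15 and 10.85 in VEH, 11.30, 11.25 and 11.16 in AI and 9.72, 9.60 and 9.72 in AI+E2. All AI arrays were above all VEH arrays, and the AI+E2 arrays were below both. Slc25a30, a carrier of the inner mitochondrial membrane, read 10.73, 10.67 and 10.56 in VEH, 10.60, 10.54 and 10.59 in AI and 9.23, 9.18 and 9.32 in AI+E2. Its AI+E2 mean was 2.66-fold below VEH. The hepatocyte growth factor receptor Met was at 8.22, 8.19 and 8.08 in VEH, 7.78, 8.07 and 7.78 in AI and 7.03, 6.96 and 7.04 in AI+E2, with AI 0.29 below VEH and AI+E2 lower again. The adhesion protein Clmp had a difference of -0.91 from VEH, although VEH replicate 3 and AI replicate 3 were both at 8.56 and the other VEH and AI arrays at 8.99 to 9.41.

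Of the 17 lower genes, 7 were grouped by hand as coding for lipid proteins, carriers or the melanocortin accessory protein, Slc25a30 among them. Acsl3, which activates long-chain fatty acids for lipid droplets, read 9.29, 9.37 and 9.43 in VEH, 9.12, 9.24 and 8.96 in AI and 8.16, 7.96 and 8.32 in AI+E2. Chka, the choline kinase that starts phosphatidylcholine synthesis, read 8.96, 9.16 and 8.71 in VEH, 9.0, 9.08 and 8.87 in AI and 8.06, 7.98 and 8.19 in AI+E2. For both genes all VEH and AI arrays were above the AI+E2 arrays. Tmem86a, which cleaves lysoplasmalogen, had a difference of -0.81 from VEH, Mlxipl, the carbohydrate response factor ChREBP, of -0.60, and the lipid-transfer-like protein Sec14l1 of -0.59. Mrap, which carries the ACTH receptor to the cell surface, averaged 10.02 ± 0.07 in VEH, 9.89 ± 0.09 in AI and 9.19 ± 0.08 in AI+E2. The remaining lower genes were the chromatin reader Brd8 (-0.84), the vesicle protein Rab33a (-0.74) and Gch1 (-0.72), the first enzyme of tetrahydrobiopterin synthesis.

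Beta-globin genes, which mark red blood cells, were lower on the AI+E2 arrays. Hbb read 11.27, 10.52 and 10.36 in VEH, 10.58, 10.20 and 10.52 in AI and 9.52, 9.31 and 9.34 in AI+E2, and Hbb-b1 read 9.59, 8.90 and 9.40 in VEH, 8.87, 8.83 and 9.61 in AI and 7.94, 7.78 and 7.83 in AI+E2. The D12 arrays were all below the VEH arrays, at 10.28, 9.57 and 10.32 for Hbb, with replicate 2 the lowest. Of the 4 other red cell genes measured, Alas2, the heme enzyme of red cells, fell against VEH (-0.49, adjusted p = 0.0137, and 0.0034 without D12 replicate 2, limma) and had a difference of -0.25 from AI (adjusted p = 0.225), and Slc4a1, Epb42 and Ahsp did not pass the test in either comparison. Their mean over the 4 was 5.77 to 5.81 in AI+E2, 5.86 to 6.02 in VEH and 5.81 to 5.84 in AI. Blood content of the tissue was not measured, and its part in the globin values was not tested.

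The ribosomal protein genes Rpl41 and Rpl36a had overlapping arrays. Rpl41 read 12.40, 11.75 and 12.68 in VEH, 12.61, 12.68 and 11.62 in AI and 11.60, 11.41 and 11.74 in AI+E2, and Rpl36a read 11.67, 11.19 and 11.65 in VEH, 11.67, 11.77 and 10.79 in AI and 10.77, 10.65 and 10.85 in AI+E2. AI replicate 3 lay within the AI+E2 range for both genes. VEH replicate 2 was the lowest VEH array for both, just above that range for Rpl41. Another probe set of Rpl36a gave a difference of -0.69 from VEH and a bright one of Rpl41 gave -0.51, while another, dim one of Rpl41 gave -0.27. Of the other 65 ribosomal protein genes 8 were higher and 1 was lower in AI+E2 against AI, 15 were higher and 0 lower against VEH, and the medians were 0.13 and 0.18. Ribosomal genes have many near-identical copies in the genome, so probe sets may read more than 1 of them. The same caution holds for the beta-globins, the RT1 genes, Oas1a, Apol9a, Lgals5 and Fcgr3a, which belong to families of close relatives.

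Of the 69 genes, 5 pairs lay near each other in the RefSeq order of protein-coding genes. Cxcl9 and Cxcl10, and RT1-Ba and RT1-Bb, were adjacent and differed in the same direction. Inppl1 and Folr1 had 2 genes between them and were both higher, and Hbb and Hbb-b1 had 2 between them and were both lower. Gal and Chka, with 4 genes between them, differed in opposite directions.

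The D12 arrays took no part in the choice, but the AI+E2 arrays did, and genes chosen for extreme AI+E2 values lie beyond other groups for that reason. The places of D12 are therefore a description. No D12 array reached the AI+E2 arrays for 49 of the 52 higher genes, with 14% of all genes above D12 in this way, and for 14 of the 17 lower genes, with 16.2% of all genes below it, and nothing is read from these counts. The exceptions among the higher genes were Cxcl10, Lgals3bp and Rtp4, each reached by D12 replicate 2 alone. Without that array all 52 higher genes were above D12. Among the lower genes, Rpl41 was reached by all 3 D12 arrays, and Hbb-b1 and Rpl36a by D12 replicate 2 alone, so that without it only Rpl41 was reached. On a scale with the mean of VEH and AI at 0% and AI+E2 at 100%, D12 had a median place of -3.78% over the higher and 12.2% over the lower genes, or -8.58% and 11.3% without replicate 2. Single genes lay on both sides, from -76.9% for RT1-Bb and -67.2% for Oas1a to 73.8% for Tbcb and 74.6% for Cxcl10 among the higher genes, and from -72.3% for Rab33a to 113% for Rpl36a among the lower. Without replicate 2 the higher genes ran from -133% for Oas1a to 79.9% for Tbcb, with Cxcl10 at 34.4%. The lower genes then ran from -65.7% for Rab33a to 93.8% for Rpl41, with Rpl36a at 60.3%.

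The change from D12 to VEH on day 16 was tested, with the reservation that the VEH arrays also entered the choice. Of the 69 genes 7 passed an adjusted p under 0.05 in limma, which is 10.1% of them and 10.1% of all genes. Higher in VEH were 5, against 6.91% of all genes, and lower 2, against 3.23%. Tmem86a rose from 10.35, 10.22 and 10.32 on D12 to 10.90, 10.73 and 10.77 in VEH (0.50 ± 0.08 SE, adjusted p = 0.00123), and was lower with AI+E2 than on D12, at 9.98, 10.04 and 9.95. Hbb-b1 rose by 0.89 ± 0.23 (adjusted p = 0.0245), Rasd1 by 0.42 ± 0.13 (adjusted p = 0.0466), Cdc14a by 0.28 ± 0.08 (adjusted p = 0.0348) and Tns1 by 0.26 ± 0.08 (adjusted p = 0.0492). For Rasd1, Cdc14a and Tns1 the values with AI+E2 lay beyond VEH on the same side. Rab33a fell from 7.88, 8.11 and 8.04 to 7.80, 7.27 and 7.30 (-0.55 ± 0.13, adjusted p = 0.0146) and was lower still with AI+E2. Zbtb33 fell by 0.34 ± 0.07 (adjusted p = 0.00753), from 9.85, 9.86 and 9.97 to 9.43, 9.5 and 9.73, and read 10.22, 10.14 and 10.27 with AI+E2, above both.

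D12 replicate 2 decided part of this comparison. Without it 10 genes rose and 5 fell, which is 21.7% of the set, with 9.11% of all genes called in that fit, and only Tmem86a, Zbtb33 and Rab33a of the original 7 were among them. Of the interferon-stimulated genes 4 then rose from D12 to VEH, Rtp4 by 0.85 (adjusted p = 0.00056), Oas1a by 1.01 (adjusted p = 0.00991), Lgals3bp by 0.51 (adjusted p = 0.00123) and Apol9a by 0.38 (adjusted p = 0.0109, limma). With all arrays the difference of Lgals3bp was -0.03. Without D12 replicate 1, 2 rose and 3 fell (6.88% of all genes were called), without D12 replicate 3 the counts were 9 and 2 (9.9%), without VEH replicate 1 they were 1 and 3 (6.94%), without VEH replicate 2 they were 4 and 2 (7.65%) and without VEH replicate 3 they were 4 and 1 (8.91%).

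**Figure D5:**
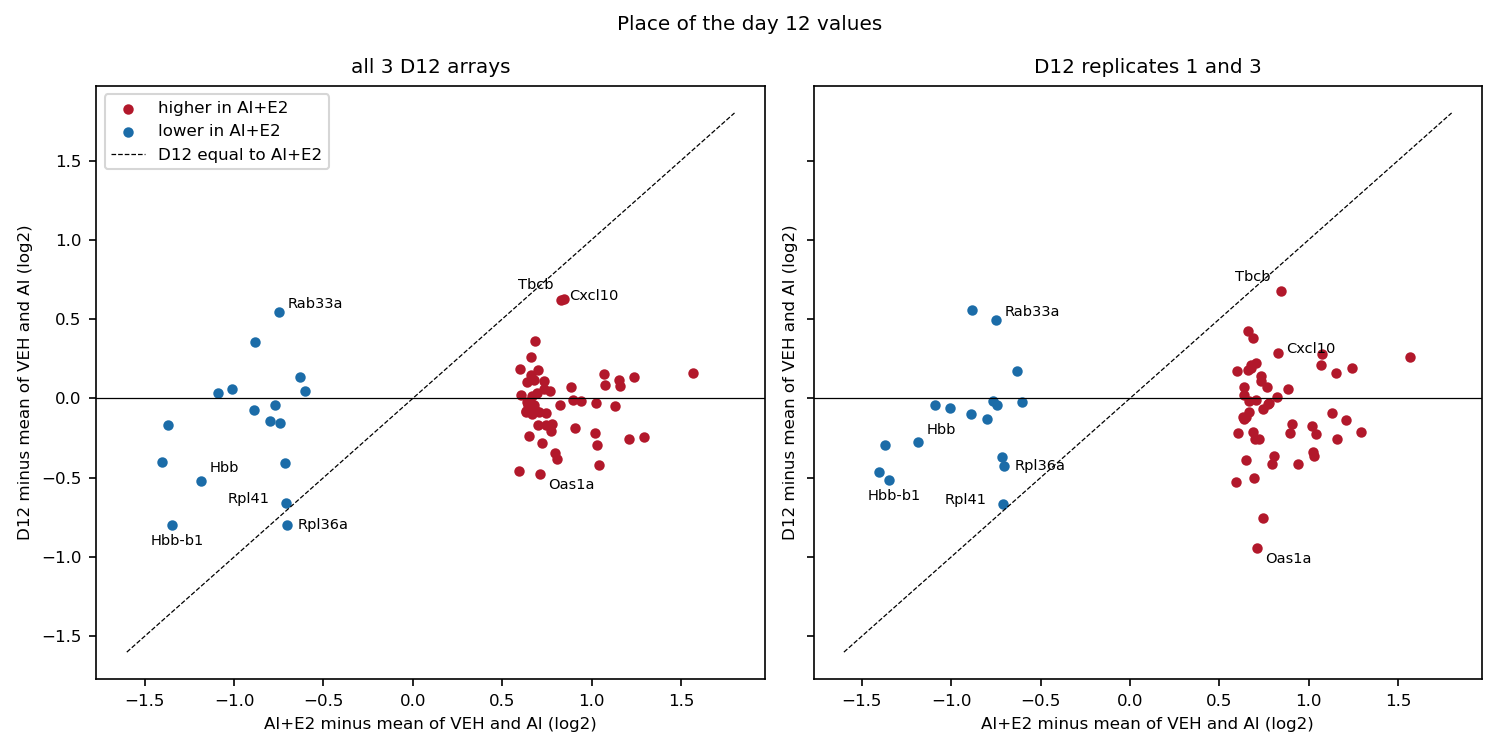
For each of the 69 genes, D12 minus the mean of VEH and AI (vertical axis, log2) against AI+E2 minus the same mean (horizontal axis, log2), with all D12 arrays on the left and with replicates 1 and 3 on the right; the dashed line marks equal values in D12 and AI+E2. Points lie on both sides of 0 on the vertical axis, with Rpl41 and Rpl36a near the dashed line on the left and Oas1a lowest on the right.

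Of the AI+E2 rats, replicate 3 had the highest value for 32 of the 52 higher genes, replicate 1 for 17 and replicate 2 for 3. Replicate 2 had the lowest value for 13 of the 17 lower genes. The same counts were not made over all genes, so nothing about this set is read from them. The median range over the 3 AI+E2 arrays was 0.158 for higher and 0.141 for lower genes, above the 0.124 over all genes. In VEH it was 0.228 and 0.433, against 0.15 over all genes, and in AI 0.191 and 0.363, against 0.143. The range was thus smallest in AI+E2 over all genes too. The genes were brighter than average, with median values of 8.13 for the higher and 8.97 for the lower genes and 6.87 over all genes.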

How the data were processed

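The deposited log2 values of 29214 probe sets on 12 arrays came from RMA, and the submitters' processing notes name R 2.12.2; RMA corrects the background, equalises the arrays' distributions and can compress large differences. Array medians ran from 6.51 to 6.56, and the number of arrays limits the precision.

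Only the 15310 probe sets with a single symbol were used; 323 with more symbols and 13581 without any were left out, although 26 and 19 of these 13904 probe sets also met the limits as higher and lower. The probe set with the highest mean stood for each of 14506 genes, and no filter on dim values was applied. A mean for each group was fitted in limma 3.58.1 (R 4.3.3) with 8 residual and 6.66 prior degrees of freedom, and p values were adjusted by Benjamini and Hochberg over all genes. On simulated data for VEH against D12 (14506 genes, 200 changed, 10 simulations) the fit recovered 94% of genes changed 1.5-fold, and 4.75% of its calls were false. The simulated noise was independent between genes, with no array apart as D12 replicate 2 was. These rates therefore do not hold for the real comparison of VEH with D12. The limit of 1.5-fold was 0.585 on the log2 scale.

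The 69 genes and the lists were chosen with earlier results of these data known; the interferon, MHC class II, glucocorticoid, clock and ribosomal lists and the interferon motif came after the genes were seen. Named were the 15 largest in each direction by the smaller difference, list members, genes called between D12 and VEH, genes nearest the limits and genes with overlapping arrays; others are named by function. Groups by function were formed by hand from the 69 genes, and their shares over all genes were not counted. Symbols of all 69 matched RefSeq. Alternatives covered limits, probe sets, normalization, filters, variance prior, the methods' t-test, a replicate block and left-out arrays.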

Additional observations from a re-analysis of the deposited data

How the results depend on the processing

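The number of genes meeting the limits followed the limits. With differences of at least 1 in AI+E2 there were 10 higher and 4 lower genes, and with at least 0.5 there were 26 lower ones, all 17 included. Leaving out each day 16 array in turn gave 47 to 64 higher and 12 to 18 lower genes, and the other alternatives stayed within 1.5 times of 52 and 17. The calls between D12 and VEH, 5 higher and 2 lower in VEH, were less stable. They were 3 and 2 with VEH and D12 arrays alone in the fit, 3 and 2 with a trended and robust prior, 3 and 5 after quantile normalization was applied again, 1 and 0 with at least 1.5-fold, and 0 and 0 with the methods' t-test after adjustment, where 6 of the 69 genes had an unadjusted p under 0.05. Leaving out 1 array gave 1 to 10 higher and 1 to 5 lower. Lgals3bp ranged from -0.30 to 0.51 when 1 array was left out, with 0.51 without D12 replicate 2. The cause was not tested. Over all genes the methods' t-test gave 57 calls after adjustment and 2247 without. Of 1092 values for single genes, 1021 kept their side of the threshold, 40 lost a call, 30 gained one and 1 was reversed. Only 7 of the 69 genes were called in the main fit, so most kept values were not called in either fit. The share kept therefore says little of how stable the calls were. A change of direction in a gene called in neither fit counted as kept. Same-numbered arrays of different groups showed no common deviation, with correlations of both signs from -0.486 to 0.339. This cannot exclude that they were handled together. The labels give replicate numbers only, so the samples were treated as unpaired. With a replicate block 4 of the genes were higher and 2 lower in VEH, and 1265 of all genes were called in place of 1471. Without D12 replicate 2, an alternative chosen after seeing the data for the list calls with AI+E2, the interferon-stimulated genes outside the set that rose went from 4 to 19 against AI and from 3 to 21 against VEH.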
